A study of Mus musculus with 8 samples.

Results

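Early erythroid progenitor B (Early Ery B) was 1 of 21 RNA classes of single mouse bone marrow cells. Its members were the cells carrying that annotation in the deposited cell table, 2460 of 22602 annotated cells (10.9%). They were 23.0% of the 10674 cells in 6 erythroid classes, the others being Early Ery A with 1135 cells, Ery A with 1360, Ery B with 1463, Ery C with 3471 and Ery 4 with 785. The class was set by RNA, and the 35 surface proteins described here were read by antibodies in the same cells and were not used to choose the members.

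The study set megakaryocyte progenitors of aged mice against those of young mice, and its CITE-seq experiment sequenced RNA together with antibody-derived tags (ADT) on single cells. The cells came from Old mice (20 to 24 months) and Young mice (2 to 3 months), all C57Bl/6 FlkSwitch, a line in which Cre driven by Flk2 turns cells irreversibly from Tom to GFP. Marrow was enriched for c-Kit, stained with unlabelled rat antibodies to T cell, B cell, myeloid and erythroid antigens, and sorted as lineage- c-Kit+ cells through touching CD150- and CD150+ gates before the tagged antibodies were added. Each cell carries a group name of a letter (A to D) and a number, and in the cell table numbers 1 and 2 were Young and numbers 3 and 4 were Old. These 16 cell groups match no title of the 8 libraries, and no source used here says which animal, library or sort gate a name stands for. The letters are therefore treated as 4 repeats of unknown kind, the spread over them may be technical, and no p-value is given. Letters A and B were alike in the cells they held, as were C and D. For instance, A1 and B1 held 1117 and 1055 Ery C cells, while C1 and D1 held 46 and 67. The letters may thus not be independent repeats.

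Red cell formation begins in progenitors that depend on c-Kit (CD117), the receptor for stem cell factor. As they commit, they gain CD105 (endoglin, a co-receptor of the TGF-beta family), keep the adhesion receptor CD44 at a high level, and lose CD150 (SLAMF1), which also marks stem cells and megakaryocyte progenitors. TER-119, an antigen associated with glycophorin A, appears on later erythroblasts.

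The class held 572 Old and 1888 Young cells. Its smallest cell groups were C3 with 19 cells and D3 with 46, and its largest were B2 with 505 and A2 with 492. Numbers 2 and 4 held 69.7% of the class, 54.0% of its Old cells and 74.5% of its Young cells. The median ADT depth was 1434 counts per cell, and the group medians ran between 751 counts in D4 and 3191 in C1. The median RNA depth was 58064.5 UMIs with 6710.5 genes per cell. Between letters, 52 barcodes were shared, and 0 of them lay in this class in more than 1 letter, and no treatment of doublets is given in the sources used here.

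Pooled over cell groups, CD117 averaged a normalized ADT score of 1.61 in Early Ery B, the highest of the 21 class means. The score is the count divided by the geometric mean of the cell's counts (each plus 1), put through log(1 + x) 2 times, so it flattens strong signals and is compared as differences. CD44 took 47.0% of the ADT counts of the class, CD117 20.3%, CD48 15.1%, CD79b 4.92% and CD105 4.41%. CD105 had a mean score of 1.13, against 0.543 in megakaryocyte-erythroid progenitors (MEP) and 0.646 in HSCs. CD79b, a chain of the B cell receptor, had a mean score of 1.21, against 1.01 in the Lymphoid B class, while the B cell antigen B220 stood at 0.327. TER-119 averaged 0.189, and a tag was seen in 63.6% of the cells.

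The proteins listed here as markers of the class, CD117, CD105, CD44 and CD79b, were all high in these cells. None of them set the class apart from every erythroid neighbour. They were chosen with earlier results of these data known, so their level is no test of the RNA label. These class means pool cell groups that differ in level, and the classes fall unequally on them, so an order of the means need not hold within a group. Within groups, CD117 was higher than in Ery A, Ery B and Ery 4 by 0.0849, 0.0737 and 0.0869 in numbers 1 and 3 alone. In numbers 2 and 4 alone the differences were -0.0189, -0.0432 and -0.0141. For Ery 4 the latter value rests on the Young groups A2 and B2 only, with 16 and 22 Ery 4 cells. For CD79b the pooled means were 1.21 in Early Ery B and 1.33 in Ery C, while within groups Early Ery B was higher in 8 of 10. CD105 and CD44 were higher in Ery B, Ery C and Ery 4 and lower in Early Ery A both ways. The class thus carried high c-Kit and CD105. Its TER-119 was near that of Early Ery A in numbers 2 and 4 alone (difference 0.00230) and above it in numbers 1 and 3 alone (0.118). For other cells that the gate could hold, the 4 megakaryocyte progenitor markers summed to 1.59, against 3.78 in MkPs. CD41 stood at 0.0977, CD61 at 0.167 and CD9 at 0.684, against 0.796, 0.886 and 1.34 in MkPs. CD150 was nearer, at 0.640 against 0.761, so the lower sum rests mostly on the other markers. Sca-1 (Ly-6A/E), CD34 and CD135 summed to 0.633, against 1.45 in HSCs. CD135 taken alone was lower in HSCs (0.0589) than in Early Ery B (0.0807), and the paper defines HSCs as negative for it. CD16/32, CD11b and Gr-1 summed to 1.24, against 2.16 in GMP/Neut progenitor A, and CD127, CD135 and B220 to 0.722, against 0.778 in Lymphoid B. CD127 (0.314 against 0.258) and B220 (0.327 against 0.313) were higher in Early Ery B than in Lymphoid B, and only CD135 was lower (0.0807 against 0.207). The lymphoid sum therefore does not set lymphoid progenitors apart from this class. Only 2 cells of the class passed the MkP gates on surface protein.

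**Figure D1:**
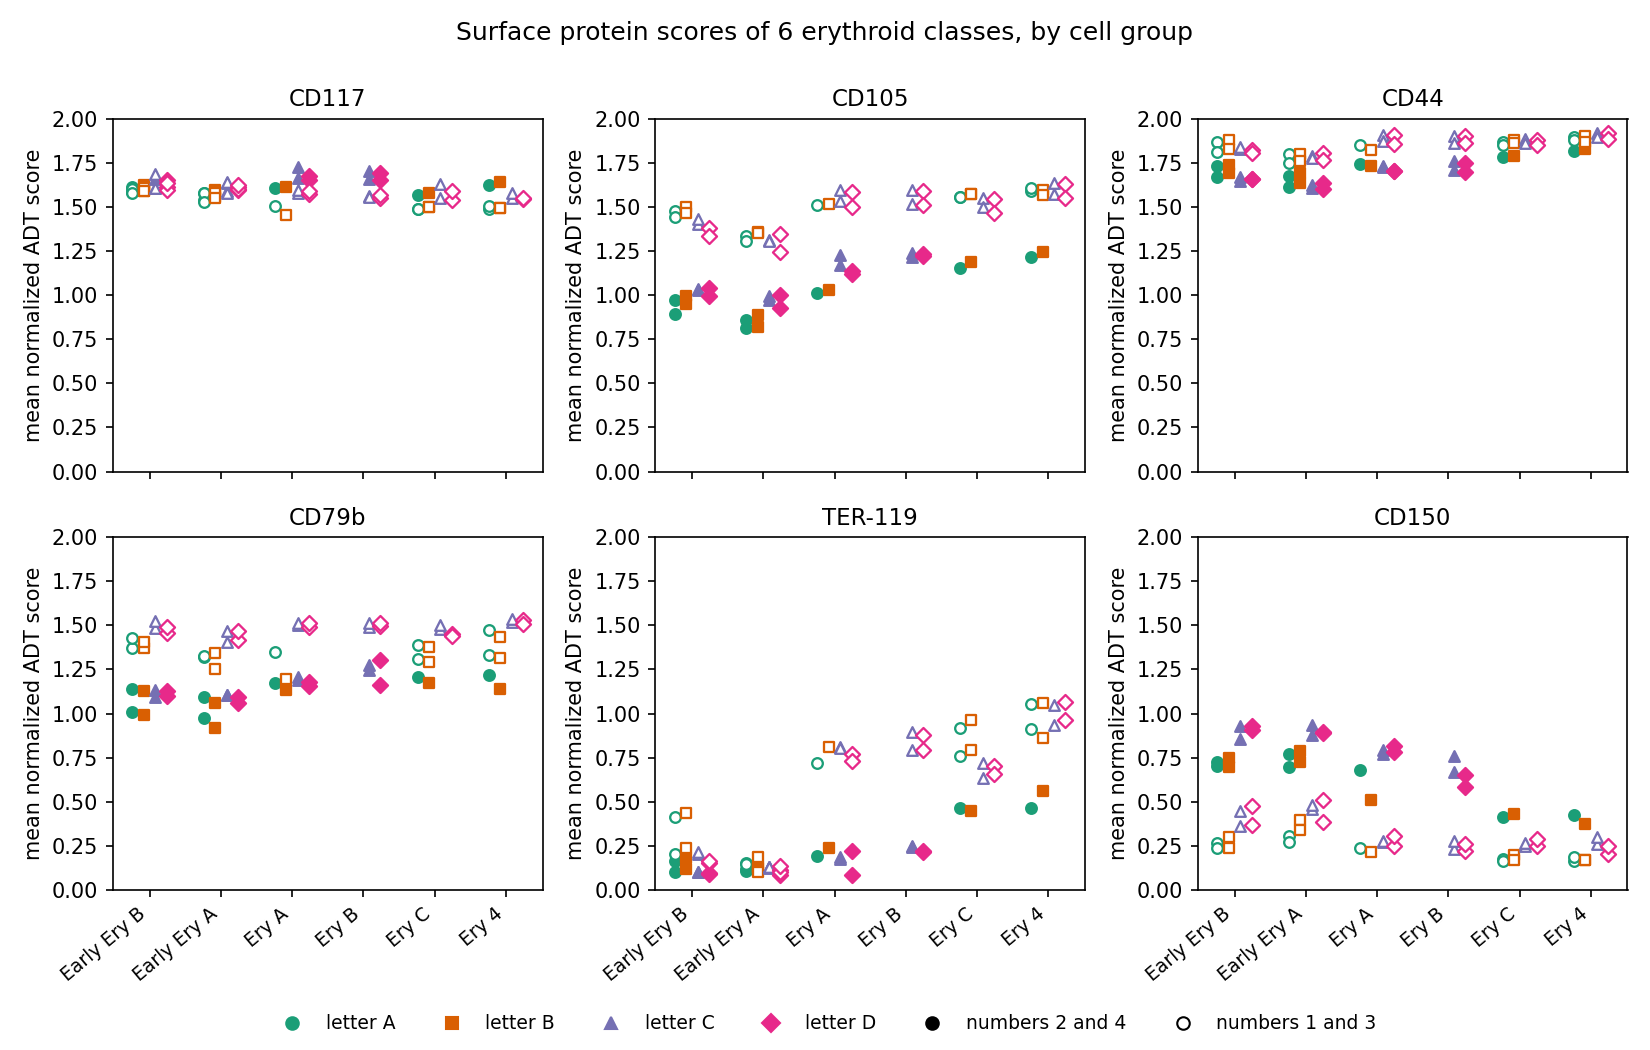
Mean normalized ADT score (vertical axis, no unit) of 6 proteins in Early Ery B and 5 other erythroid classes (horizontal axis). Each point is 1 cell group with at least 10 cells of the class; filled points are numbers 2 and 4, open points numbers 1 and 3. TER-119 in Early Ery B lies between 0.0916 and 0.436, and CD150 and CD105 split by number in each class.

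Early Ery B and Early Ery A differed by less than 0.1 in the mean score of each surface protein. Classes were compared within each cell group that held at least 10 cells of both, then averaged by letter, and a protein was called when the mean difference reached 0.1 with 1 direction in every letter. None of the 35 proteins was called (0%), and the median difference over all of them was -0.000337, with higher and lower values balanced. CD105 came nearest. It averaged 1.21 in Early Ery B and 1.12 in Early Ery A over 16 groups, a difference of 0.0937 ± 0.0307 (mean and SD over 4 letters), with 0.116, 0.123, 0.0779 and 0.0585 in letters A to D. CD105 was higher in Early Ery B in 15 of the 16 groups, and D2 was the exception at -0.00815.

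The other listed markers differed by less, in 1 direction in nearly every group. CD44 was higher in Early Ery B in 16 of 16 groups (1.76 against 1.71, difference 0.0511 ± 0.0126), and CD79b in 15 of 16 (1.27 against 1.21, difference 0.0533 ± 0.0211). CD117 differed by 0.0290 ± 0.00857. TER-119 averaged 0.186 in Early Ery B and 0.126 in Early Ery A. Its difference was 0.258 in group A1 and 0.250 in B1 but -0.0286 in C2 and -0.0281 in C4. Without regard to letter, TER-119 was higher in Early Ery B in 11 of 16 groups. In numbers 1 and 3 alone it differed by 0.118 and was called, while in numbers 2 and 4 alone it differed by 0.00230.

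CD62L (L-selectin), an adhesion molecule of early progenitors and leukocytes, was lower in Early Ery B in 16 of 16 groups, by -0.0544 ± 0.0340. CD27, a TNF receptor family member on early progenitors, averaged 0.588 in Early Ery B and 0.671 in Early Ery A, and the tetraspanin CD9 averaged 0.721 and 0.782. Their differences were -0.0831 ± 0.0620 and -0.0610 ± 0.0520, and most of each came from letters A and B. Like TER-119, CD27, CD9 and CD105 were called in numbers 1 and 3 alone, while no protein was called in numbers 2 and 4 alone. CD150 (-0.0336 ± 0.0282), CD48 (0.0109 ± 0.00757), CD41 (-0.00944 ± 0.0123) and Sca-1 (0.00326 ± 0.0296) differed little. The 4 erythroid progenitor proteins had a median difference of 0.0556 and the 5 megakaryocyte and platelet proteins one of -0.0202.

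Early Ery B cells were the deeper ones, with 1434 ADT counts and 58064.5 RNA UMIs per cell, against 1091 and 35914 in Early Ery A. With every cell thinned to 300 ADT counts, CD105 differed by 0.0648, CD44 by 0.0301, CD79b by 0.0221 and CD117 by 0.00150, and CD27 and CD9 passed the threshold in place of none. Cell by cell, an Early Ery B cell had the higher CD105 score in 68.3% of pairings with an Early Ery A cell of its group (mean of 16 groups), and the higher CD44 score in 72.2%. Without letter D, CD105 differed by 0.105 and was called.

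Against Ery A, Early Ery B had less TER-119 and CD62L and more CD38, CD54, CD9, CD86 and CD150. Of 35 proteins 7 were called (20%), 5 higher (14.3%) and 2 lower (5.71%) in Early Ery B, over 12 cell groups. TER-119 averaged 0.193 in Early Ery B and 0.479 in Ery A, with letter differences of -0.168, -0.215, -0.340 and -0.326 (mean -0.262 ± 0.0841). In letters A and B the comparison used Young groups alone (A1, A2, B1 and B2), with 15 to 32 Ery A cells each. CD62L averaged 0.443 and 0.626 (-0.169 ± 0.0685). CD38, an ectoenzyme, was higher by 0.195 ± 0.0562, and CD54 (ICAM-1), an adhesion molecule, by 0.163 ± 0.0648. CD38 and CD54 were higher in 12 of 12 groups.

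The TER-119 difference from Ery A depended on the number in the group name. It was -0.468 in numbers 1 and 3 alone and -0.0570 in numbers 2 and 4 alone, where TER-119 was no longer called. CD9 (0.127 ± 0.0924), the costimulatory protein CD86 (0.122 ± 0.0225) and CD150 (0.113 ± 0.0538) were the other proteins called higher. After thinning to 300 counts CD86 and CD150 came to 0.0858 and 0.0992, and CD9, at 0.109, no longer had 1 direction in every letter. CD9 also missed the threshold without letter D, at 0.0929, and CD150 without letter B, at 0.0970. Neither CD9 nor CD150 was called with a minimum of 20 cells. CD105 differed by -0.0924 ± 0.0715, lower in 12 of 12 groups, and was called after thinning, at -0.104, and without letter B, at -0.115, and came to -0.298 with letter and age as the block. CD48 (0.0910 ± 0.00774), CD117 (0.0330 ± 0.0399), CD44 (-0.0226 ± 0.0446), CD79b (-0.00138 ± 0.0603), CD41 (0.0125 ± 0.0176) and Sca-1 (0.0107 ± 0.0112) were not called.

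Ery B cells were numerous enough only in letters C and D, where 12 proteins were called (34.3%), 10 higher (28.6%) and 2 lower (5.71%) in Early Ery B. TER-119 averaged 0.140 in Early Ery B and 0.536 in Ery B, a difference of -0.390 in letter C and -0.401 in D. The 2 letters were alike, but the numbers were not: TER-119 differed by -0.657 in numbers 1 and 3 alone and by -0.135 in numbers 2 and 4 alone. CD105 averaged 1.21 and 1.39 (-0.184 ± 0.0230, SD over 2 letters) and was lower in Early Ery B in 8 of 8 groups. CD27 was higher by 0.358 ± 0.0585, CD38 by 0.296 ± 0.0140, CD54 by 0.273 ± 0.0291 and CD9 by 0.234 ± 0.0645. CD150 followed at 0.204 ± 0.0544, CD86 at 0.170 ± 0.0194 and CD48, a SLAM family protein of committed progenitors, at 0.167 ± 0.0127. MHC class II (0.154 ± 0.0136), the Fc receptors CD16/32 (0.126 ± 0.0105) and the macrophage antigen F4/80 (0.112 ± 0.0157) completed the list. With letter and age as the block, CD48 and F4/80 came to 0.0850 and 0.0862 and were not called. CD117 differed by 0.0153, CD44 by -0.0635, CD79b by -0.0735, CD41 by 0.0313 and Sca-1 by 0.00953, none of them called.

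Against Ery C and Ery 4, too, TER-119 was the widest of the 35 differences. Of 35 proteins 12 were called against Ery C (34.3%) and 12 against Ery 4 (34.3%), each with 10 higher (28.6%) and 2 lower (5.71%) in Early Ery B. TER-119 averaged 0.237 in Early Ery B, against 0.706 in Ery C and 0.893 in Ery 4, over 10 groups, with differences of -0.474 ± 0.0330 and -0.684 ± 0.160. Against Ery 4 the difference was -0.553 in letter A and -0.543 in B, but -0.784 in C and -0.857 in D. In numbers 1 and 3 alone it was -0.515 from Ery C and -0.735 from Ery 4. In numbers 2 and 4 alone, which left only the Young groups A2 and B2, it was -0.286 and -0.342. CD105 averaged 1.34 in Early Ery B, against 1.47 in Ery C and 1.52 in Ery 4 (-0.127 ± 0.0134 and -0.186 ± 0.0335). Centred on the lineage antibodies, the CD105 differences were -0.0633 and -0.0813, and CD105 was not called in either comparison. TER-119 is among those antibodies, and its lower level in Early Ery B shifts every centred difference upward. The other 10 called proteins were higher in Early Ery B in 10 of 10 groups in both comparisons.

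CD27 was higher than in Ery C by 0.313 ± 0.165 and than in Ery 4 by 0.365 ± 0.194. Its letter differences from Ery 4 were 0.197, 0.202, 0.494 and 0.569, so letters C and D carried the larger values. CD38 differed by 0.273 ± 0.0460 from Ery C and 0.275 ± 0.0595 from Ery 4, CD54 by 0.245 ± 0.0340 and 0.235 ± 0.0582, and CD9 by 0.225 ± 0.120 and 0.261 ± 0.156. CD48 (0.183 ± 0.0312 and 0.196 ± 0.0744), CD150 (0.154 ± 0.00670 and 0.165 ± 0.0335) and MHC class II (0.194 ± 0.0184 and 0.191 ± 0.0248) were also higher. CD86, CD16/32 and the lysosomal tetraspanin CD63 had called differences between 0.112 and 0.144. The calls of CD48 and CD63 depended on the block. With letter and age as the block, CD48 came to 0.0828 against Ery C and 0.0995 against Ery 4, and CD63 to 0.0147 and 0.0302, none of them called. With no block, CD48 came to 0.0524 against Ery C, and CD63 to 0.0214 and 0.0242. In numbers 2 and 4 alone (A2 and B2), CD48 came to 0.0957 against Ery C and 0.0661 against Ery 4. CD63 came to 0.0217 and 0.0216, so that all were short of the threshold. Without letter C, CD16/32 missed it against Ery 4, at 0.0945. CD117 differed by 0.0674 ± 0.0166 from Ery C and 0.0682 ± 0.0110 from Ery 4, and CD44 by -0.0373 and -0.0687, all short of the threshold, as were CD79b (0.0184 and -0.0220), CD41 (0.0510 and 0.0390) and Sca-1 (0.0330 and 0.0334).

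**Figure D2:**
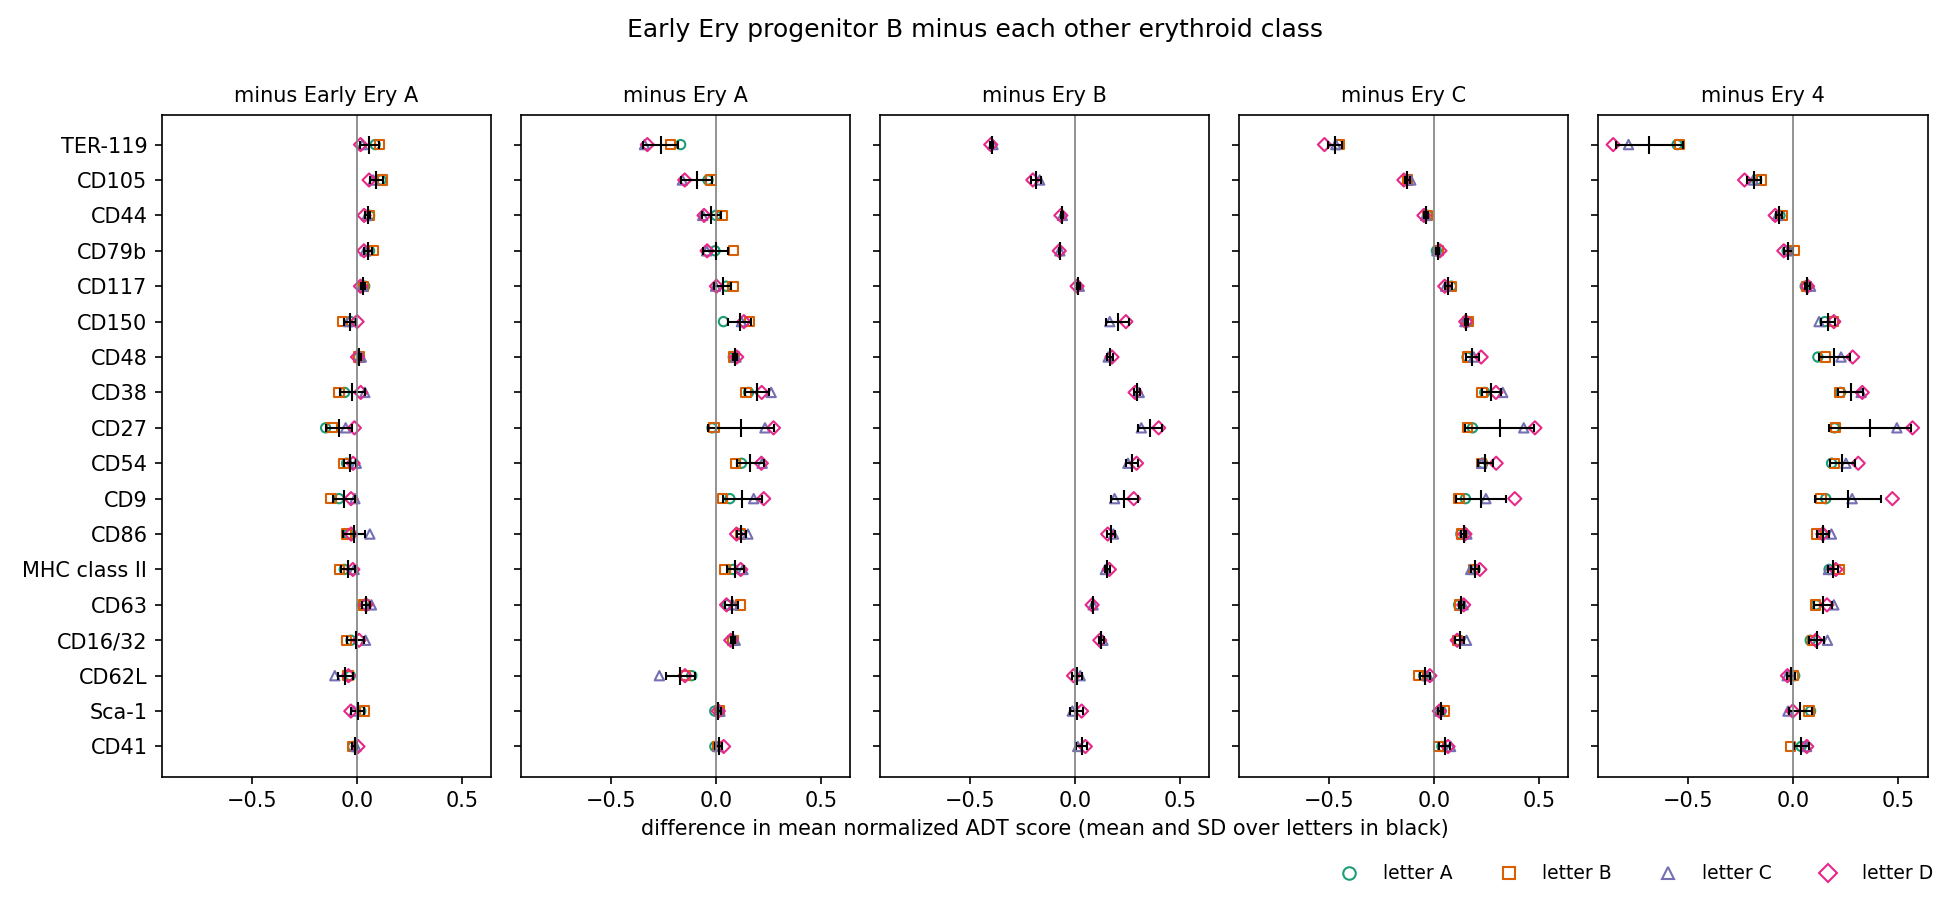
Difference in mean normalized ADT score (horizontal axis, Early Ery B minus the class named above each panel) for 18 proteins (vertical axis). Coloured points are letters, black marks the mean with the SD over letters. Mean differences from Early Ery A all lie within 0.1 of 0, and TER-119 reaches -0.684 against Ery 4.

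The calls were spread over 5 of the 6 lists of proteins. Against Ery 4, 2 of 4 erythroid proteins were called lower (TER-119 and CD105), and 2 of 5 megakaryocyte and platelet proteins (CD9 and CD150) and 2 of 4 adhesion and activation proteins (CD54 and CD63) were called higher. Of the stem and multipotent list, 3 of 6 proteins were called higher (CD27, CD38 and CD48) with a median difference of 0.115, beside a median of 0.0334 over all 35. Of the 8 myeloid and dendritic proteins 3 were called higher (MHC class II, CD86 and CD16/32), median 0.0557. Of the 8 lymphoid proteins none was called, median -0.0170. Sca-1, CD34 and CD135, of the stem and multipotent list, were not called against any of the 5 classes, and CD135 averaged 0.0807 in Early Ery B. Ery A, Ery B, Ery C and Ery 4 were deeper than Early Ery B, with medians of 1731 to 2126 ADT counts per cell. At 300 counts per cell TER-119 kept differences of -0.328 from Ery C and -0.458 from Ery 4, CD27 0.202 and 0.243, and CD48 0.210 and 0.269. CD86 and CD16/32 lost their call against Ery B, Ery C and Ery 4 at that depth, with values of 0.0592 to 0.0937. So did CD150 against Ery C, at 0.0895, CD63 against Ery C and Ery 4, at 0.0645 and 0.0672, and F4/80 against Ery B, at 0.0722.

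Within Early Ery B, surface protein differed widely with the number in the group name. This comparison was added after the cell groups were seen to differ. In 8 pairs of the same letter and age, 11 of 35 proteins were called (31.4%) between numbers 2 and 4 and numbers 1 and 3, 4 higher (11.4%) and 7 lower (20%) in numbers 2 and 4, each with 1 direction in 8 of 8 pairs. The sort separated cells by CD150, and the names do not state which number came from which gate.

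CD150 had mean scores of 0.723, 0.747, 0.857 and 0.909 in A2 to D2 and 0.703, 0.694, 0.927 and 0.931 in A4 to D4. In A1 to D1 it stood at 0.266, 0.299, 0.360 and 0.367, and in A3 to D3 at 0.235, 0.237, 0.449 and 0.477. The sets of groups did not overlap, and the difference was 0.475 ± 0.0210. The mean CD150 count per cell was 11.3 to 21.8 in numbers 2 and 4 and 2.39 to 6.04 in numbers 1 and 3.

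CD105 ran the other way. Its mean scores were 0.971, 0.995, 1.03 and 0.996 in A2 to D2 and 0.894, 0.951, 1.03 and 1.04 in A4 to D4. They were 1.48, 1.5, 1.40 and 1.38 in A1 to D1 and 1.44, 1.46, 1.43 and 1.34 in A3 to D3. Every group of numbers 2 and 4 thus lay below every group of numbers 1 and 3, with a difference of -0.442 ± 0.0916. In counts, the mean CD105 count per cell was 19.4 to 37.7 in numbers 2 and 4 and 92.3 to 199.9 in numbers 1 and 3. In A2, 90% of the cells had a CD105 score under 1.19, while in A1 90% were over 1.35.

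CD79b differed by -0.352 ± 0.0306, with group means of 0.993 to 1.14 in numbers 2 and 4 and 1.37 to 1.53 in numbers 1 and 3. CD63 (-0.209 ± 0.00948), CD44 (-0.153 ± 0.0186) and B220 (-0.134 ± 0.0266) also had group means that did not overlap, so that 6 of 35 proteins separated the sets of groups in full. CD48 (-0.176 ± 0.0343) and TER-119 (-0.134 ± 0.0570) were lower in numbers 2 and 4, and CD54 (0.156 ± 0.0465), MHC class II (0.146 ± 0.0610) and CD38 (0.118 ± 0.0628) were higher, with group means that overlapped. CD117 differed by 0.00526, with group means of 1.59 to 1.66 in numbers 2 and 4 and 1.58 to 1.69 in numbers 1 and 3. CD41 (-0.0255 ± 0.0359) and Sca-1 (0.0302 ± 0.0552) were not called.

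ADT depth moved with the number as well. Group medians were 751 to 1449 counts per cell in numbers 2 and 4 and 1825 to 3191 in numbers 1 and 3. With every cell thinned to 300 counts, CD150 differed by 0.481, CD105 by -0.347 and CD79b by -0.258, while CD63 came to -0.0694, TER-119 to -0.0394, CD48 to -0.0802, CD44 to -0.0778 and B220 to -0.00551. Thinning brought CD117 to 0.124, past the threshold. On the scale of log2 counts per 1000 the B220 difference was 0.0238, so its direction depended on the scale.

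Other erythroid classes varied with the number too. In Early Ery A the difference between numbers 2 and 4 and numbers 1 and 3 was 0.429 ± 0.0280 for CD150, -0.409 ± 0.0965 for CD105 and -0.324 ± 0.0334 for CD79b. In Ery A it was 0.441 ± 0.104 for CD150 and -0.441 ± 0.0612 for CD105. TER-119 differed by -0.0189 ± 0.0161 in Early Ery A and by -0.581 ± 0.0416 in Ery A, beside -0.134 ± 0.0570 in Early Ery B. These differences between classes were not tested.

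**Figure D3:**
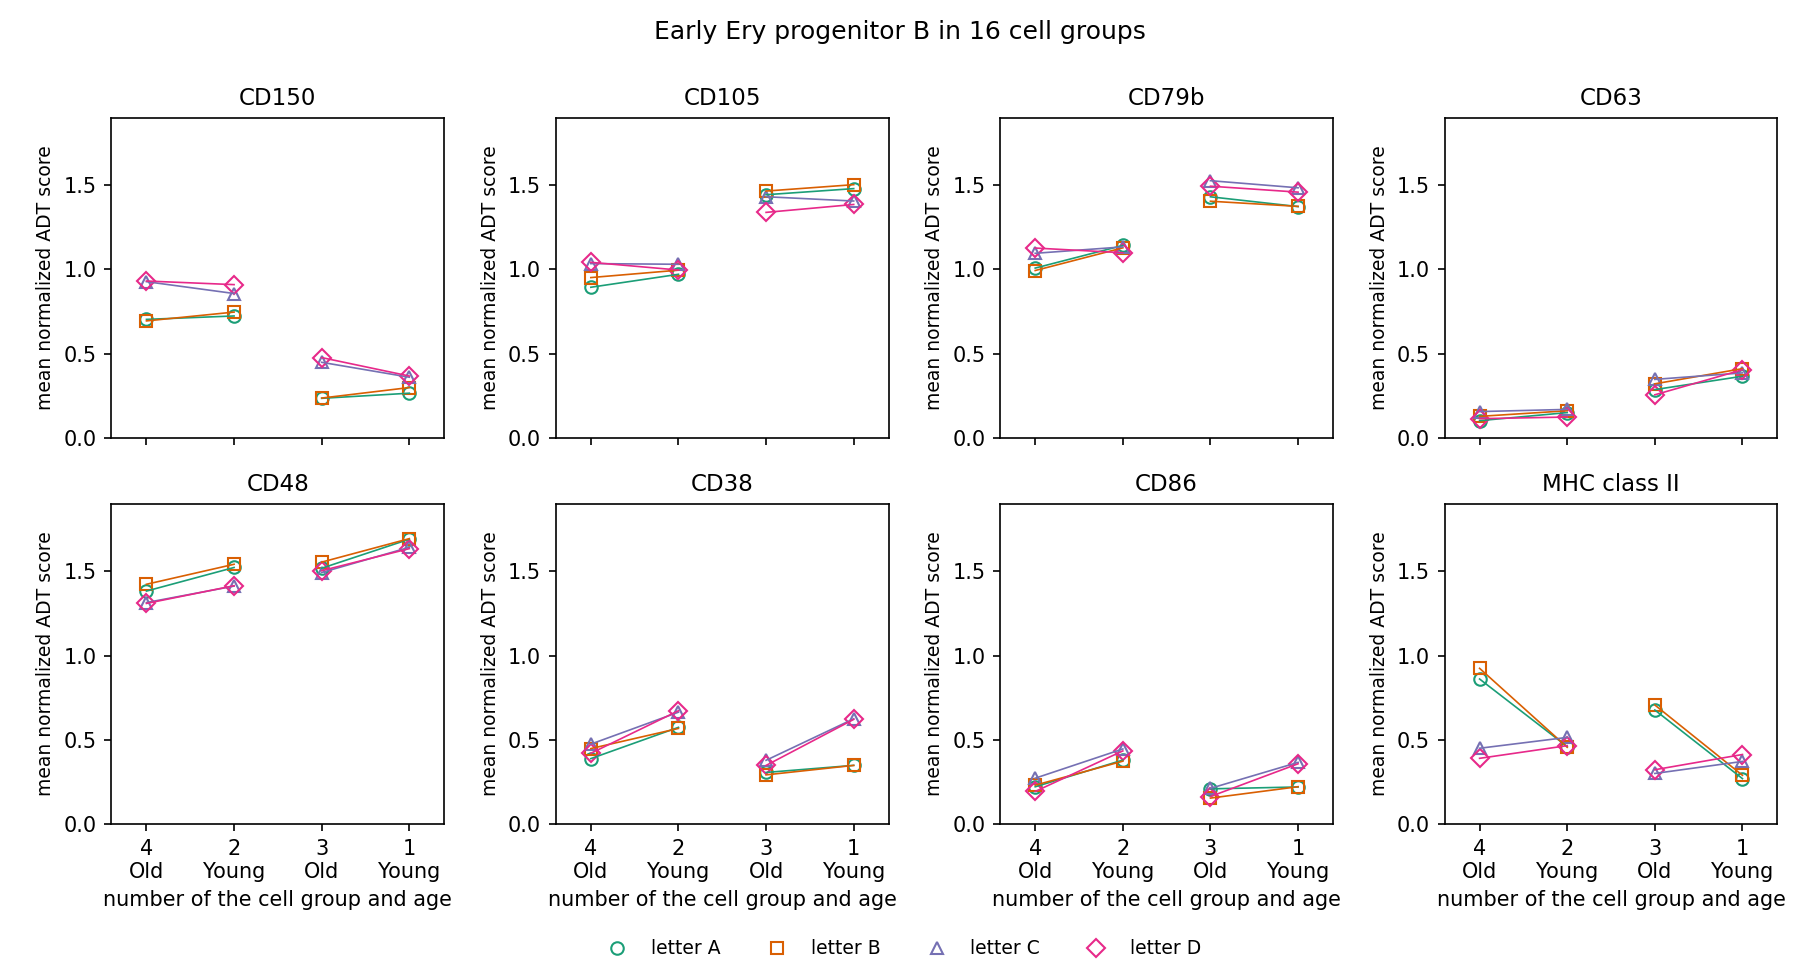
Mean normalized ADT score (vertical axis) of 8 proteins in Early Ery B, for cell groups ordered by number and age (horizontal axis), with letters as colours and lines joining Old and Young groups of the same letter. CD150 is between 0.694 and 0.931 in numbers 4 and 2 and between 0.235 and 0.477 in numbers 3 and 1, and MHC class II splits by age only in letters A and B.

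Old Early Ery B cells carried less CD38, CD86 and CD48 than Young ones. Compared by letter, 3 of 35 proteins were called (8.57%), all lower in Old, and none was higher. CD38 differed by -0.177, -0.155, -0.200 and -0.262 in letters A to D (-0.198 ± 0.0461), CD86 by -0.126, -0.148, -0.166 and -0.230 (-0.168 ± 0.0445) and CD48 by -0.104, -0.0802, -0.119 and -0.101 (-0.101 ± 0.0160). The CD48 call rested on small margins: the difference was -0.0952 without letter C, -0.0840 for medians, -0.0909 when centred on lineage antibodies and -0.0668 for cells of middle depth. Since Old and Young cells fell unequally on the numbers, each age was then compared within letter and number, which gave 8 pairs. Pairs that share a letter may not be independent. CD38, CD86 and CD48 were again the called proteins (3 of 35, 8.57%), lower in 8 of 8 pairs.

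CD48 had mean scores of 1.38, 1.42, 1.31 and 1.31 in Old groups A4 to D4, against 1.52, 1.54, 1.41 and 1.41 in Young groups A2 to D2. In Old groups A3 to D3 they were 1.52, 1.55, 1.49 and 1.5, against 1.69, 1.69, 1.64 and 1.63 in Young groups A1 to D1. Its 8 differences ran from -0.172 to -0.0976, a narrow range (mean -0.132 ± 0.0242, SD of 8 pairs). CD48 tags were 7.74% to 13.0% of the ADT counts in the Old groups and 11.1% to 19.1% in the Young groups.

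CD38 had mean scores of 0.389, 0.449, 0.475 and 0.421 in A4 to D4, against 0.575, 0.568, 0.665 and 0.673 in A2 to D2. In A3 to D3 it stood at 0.307, 0.293, 0.379 and 0.349, against 0.349, 0.349, 0.625 and 0.622 in A1 to D1. The pairs of letters A and B with numbers 3 and 1 differed by only -0.0419 and -0.0562, and the mean of 8 was -0.170 ± 0.0891. CD86 averaged 0.222, 0.232, 0.273 and 0.195 in A4 to D4, against 0.381, 0.374, 0.447 and 0.435 in A2 to D2, with a mean of 8 pairs of -0.143 ± 0.0722. Its smallest difference was -0.0111, between A3 and A1.

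The summed megakaryocyte progenitor markers ranged from 1.08 to 2.05 in Old groups and from 1.11 to 1.99 in Young groups, and the stem and multipotent markers from 0.508 to 0.831 and from 0.519 to 0.657. The myeloid markers ranged from 1.14 to 1.26 and from 1.07 to 1.31, the lymphoid markers from 0.610 to 0.979 and from 0.688 to 0.853, and the part of these cells in the age differences was not tested. ADT depth was lower in the Old group in 8 of 8 pairs, for example 811 against 1247.5 counts per cell in A4 and A2 and 2613 against 3191 in C3 and C1. After thinning to 300 counts, CD48 differed by -0.120 and CD38 by -0.127 over the 8 pairs, lower in each, and CD86 by -0.0739, lower in 7. By letter, CD86 came to -0.0979 after thinning and was no longer called. For cells called Egfp-positive alone the differences by letter were -0.192 for CD38, -0.165 for CD86 and -0.101 for CD48. Early Ery A gave -0.204 ± 0.0677, -0.156 ± 0.0300 and -0.131 ± 0.0268 for CD38, CD86 and CD48 over its own 8 pairs.

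None of the erythroid markers was called with age once the number was matched, though several split by letter or number. CD105 was 0.0667 ± 0.0630 by letter, but -0.0208 ± 0.0415 over the 8 pairs, higher in Old in 3 of them. CD117 (0.0142 ± 0.0428), CD79b (-0.0141 ± 0.0793), CD44 (-0.0303 ± 0.0261), CD150 (0.0155 ± 0.0667), CD41 (-0.0178 ± 0.0435) and TER-119 (-0.0633 ± 0.0923) were not called either, nor was Sca-1 (0.0696 ± 0.147). TER-119 differed by -0.210 and -0.199 in A3 and B3 against A1 and B1, by -0.0576 and -0.0650 in A4 and B4 against A2 and B2, and by 0.00167 to 0.0123 in letters C and D. CD79b differed by -0.134 in A4 against A2 and in B4 against B2, but by 0.0305 to 0.0581 in the 4 pairs of numbers 3 and 1. Smaller differences with 1 direction in 8 of 8 pairs were seen for F4/80 (-0.0804), CD63 (-0.0574), the chemokine receptor CX3CR1 (-0.0458) and the integrin CD11c (0.0564). After thinning, each of these 4 had at least 1 pair in the other direction, CD11c being higher in 7 of 8.

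MHC class II separated the letters. It averaged 0.861 and 0.925 in Old groups A4 and B4, against 0.460 and 0.457 in Young groups A2 and B2, and 0.678 and 0.707 in A3 and B3, against 0.271 and 0.290 in A1 and B1. In letters C and D the Old groups lay between 0.301 and 0.451 and the Young groups between 0.373 and 0.515. The Old minus Young difference was thus 0.423 ± 0.0305 over the 4 pairs of letters A and B and -0.0753 ± 0.0109 over the 4 pairs of letters C and D. CD54 (0.176 and -0.106), CD27 (0.175 and -0.0778) and Sca-1 (0.168 and -0.0289) had means of opposite sign in the same sets of letters. Early Ery A showed an MHC class II difference of 0.358 ± 0.0790 in letters A and B and -0.00508 ± 0.0760 in letters C and D. What the letters stand for is not stated, so age within a letter cannot be told apart from the animals used for it.

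**Figure D4:**
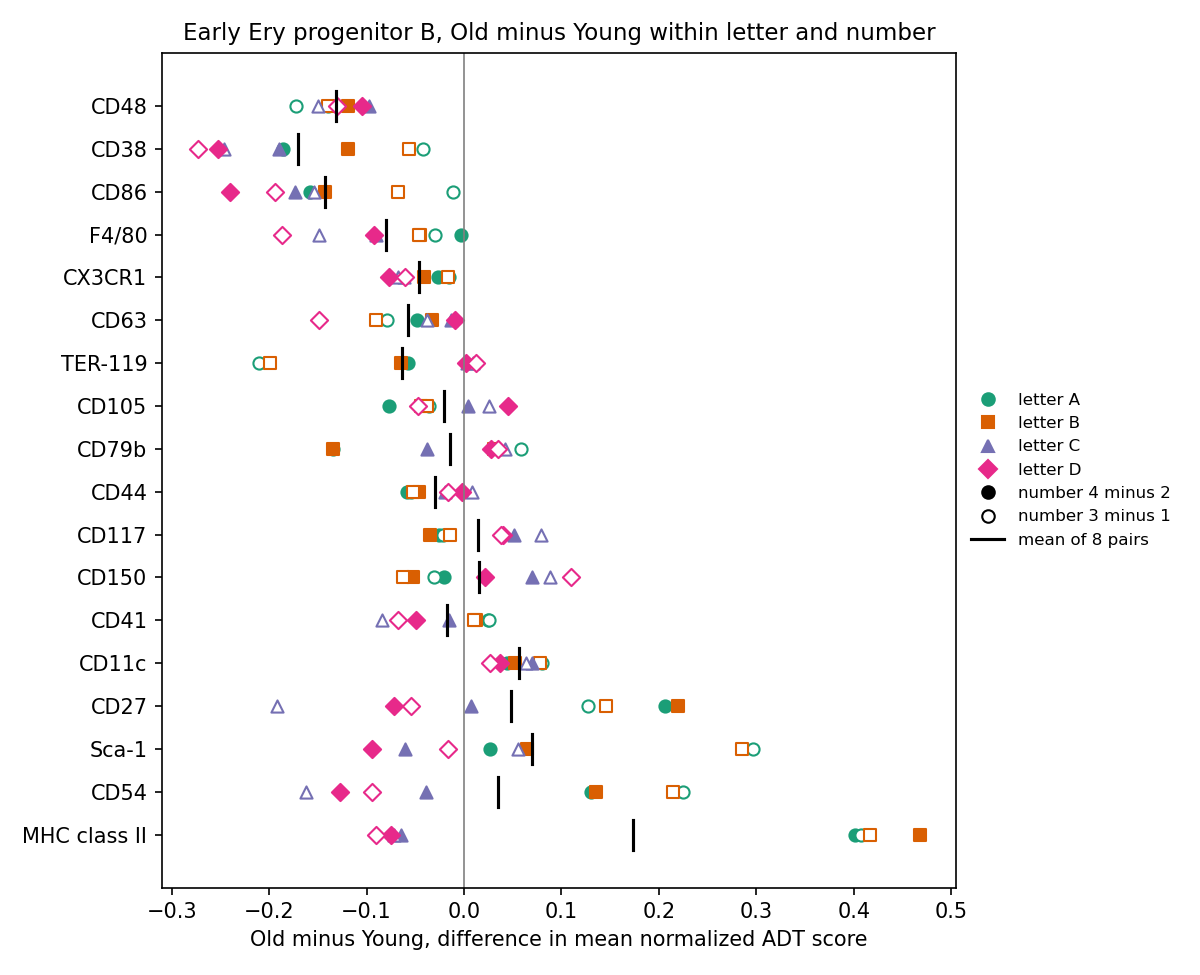
Old minus Young difference in mean normalized ADT score (horizontal axis) for 18 proteins in Early Ery B (vertical axis), within letter and number. Filled points are number 4 minus 2, open points number 3 minus 1, and the black bar is the mean of 8 pairs. CD48 lies between -0.172 and -0.0976 in every pair, and MHC class II is near 0.423 in letters A and B only.

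Early Ery B made up less of the Old pools. Its share of all annotated cells was 8.59%, 10.8%, 24% and 28.2% in A4 to D4, against 34.3%, 35.3%, 37.6% and 38.2% in A2 to D2. In A3 to D3 it was 3.51%, 4.98%, 1.24% and 2.42%, against 7.44%, 8.31%, 3.51% and 3.45% in A1 to D1. It was lower in Old in 8 of 8 pairs, and exact 95% Clopper-Pearson intervals of the pairs with numbers 4 and 2 did not overlap. By letter the difference was -13.5, -12.7, -5.81 and -4.07 percentage points (-9.04 ± 4.80).

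Counted among the 6 erythroid classes, the share was 49.6%, 55.9%, 50.0% and 57.9% in A4 to D4, against 54.2%, 56.6%, 53.6% and 57.3% in A2 to D2. The intervals overlapped in each of these pairs, for instance 50.1% to 65.4% in D4 and 52.3% to 62.2% in D2. In A3 to D3 it was 13.1%, 17.5%, 3.35% and 5.78%, against 10.6%, 12.2%, 7.63% and 7.32% in A1 to D1, higher in Old in letters A and B and lower in C and D. The cells were sorted and given sample tags in aliquots before capture, so a share describes the pool and not the marrow, and the intervals cover counting error only.

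**Figure D5:**
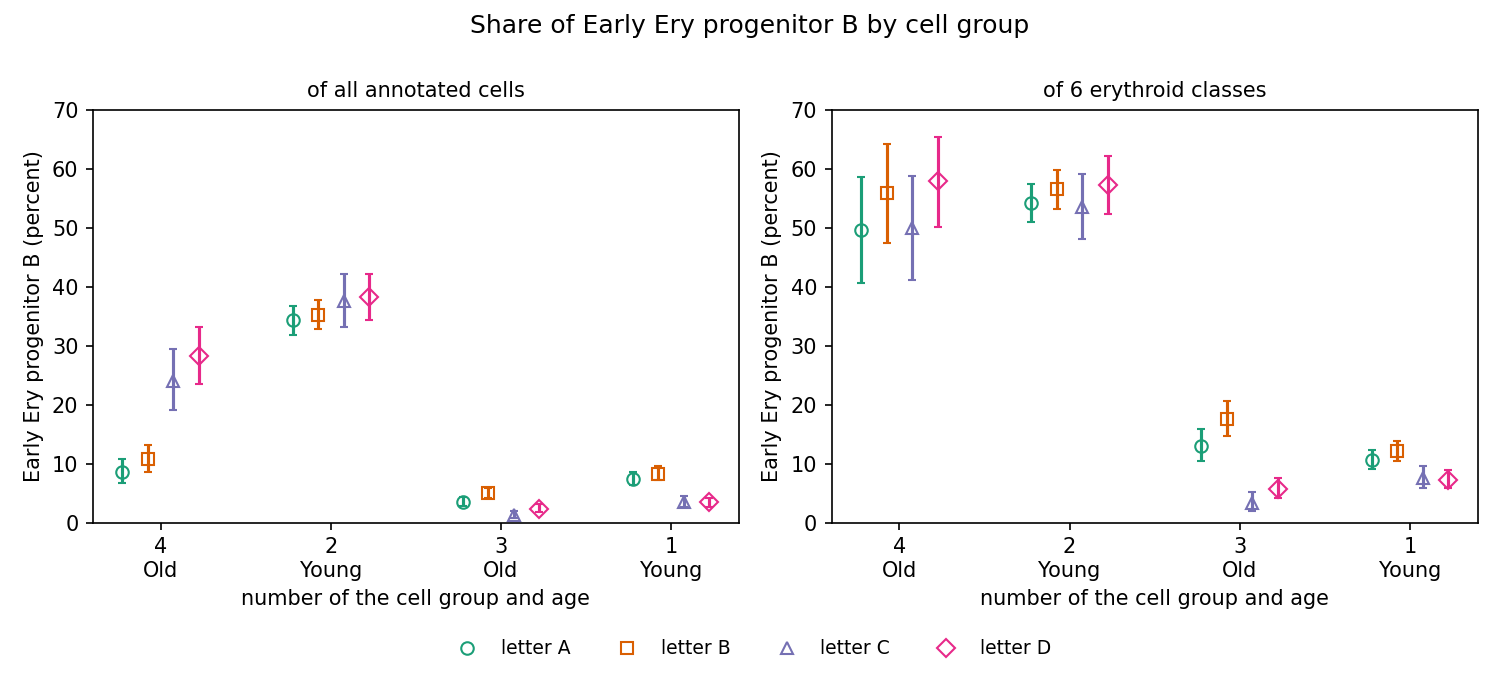
Share of Early Ery B in percent (vertical axis) of all annotated cells (left) and of the 6 erythroid classes (right), for cell groups ordered by number and age (horizontal axis), with exact 95% intervals. Of all cells the Old groups of number 4 are at 8.59% to 28.2% and the Young groups of number 2 at 34.3% to 38.2%, while of erythroid cells they lie at 49.6% to 57.9% and 53.6% to 57.3%.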

How the data were processed

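CITE-seq of FlkSwitch marrow was analysed from the tag matrix and cell table. The matrix holds ADT counts of 35 antibodies in 22790 cells, as deposited, and the 188 cells without annotation were not used. Per the submitters' processing notes, Cell Ranger and mm10 were used. The authors deposited a normalized score per cell and antibody, rebuilt here from the counts to within 5e-10, along with ages, RNA classes, Egfp calls and the percent of mitochondrial reads (class median 2.89). Cells low in genes or negative for both CD117 and Kit had been removed by the authors. CD105 was read through a biotin antibody and tagged streptavidin. CD117 and CD150 antibodies for sorting, and unlabelled lineage antibodies, were on the cells before the tagged ones, and their part in the scores was not tested.

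Groups were compared as described with each result, using Python 3.11.15, numpy 2.4.6, pandas 2.3.3, scipy 1.17.1 and matplotlib 3.10.9. Since all 8 libraries carry 1 genotype label and no name ties cells to them, no significance test was run, and the smallest two-sided sign-flip p over 4 letters would be 0.125. Named proteins were CD117, CD105, CD44, CD79b, TER-119, CD150, CD41, CD48 and Sca-1, plus up to 10 called proteins by size, and others by list. CD27, CD9 and CD62L against Early Ery A, CD16/32 and F4/80 in the class comparisons, and those with 1 direction in 8 pairs were named after their values were seen. The members and lists were chosen with earlier results of these data known. Thinning left out 10 Old and 7 Young cells under 300 counts. The procedure was tested on simulated data. Alternatives were a minimum of 20 cells, medians, log2 counts per 1000 plus 1, centring on 8 lineage antibodies, depth from the 10th to the 90th percentile, thinning, other blocks, a threshold of 0.05, GFP+ cells alone and leaving out each letter.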

Additional observations from a re-analysis of the deposited data

Results flagged for a closer look

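In 6 of 35 proteins the Old minus Young difference within number had 1 sign in all 4 pairs of letters A and B. It had the other sign in all 4 pairs of letters C and D. Values are means over 4 pairs each. These were MHC class II (0.423 in A and B, -0.0753 in C and D), CD54 (0.176 and -0.106), CD150 (-0.0413 and 0.0723), CD117 (-0.0238 and 0.0522), TER-119 (-0.133 and 0.00633) and CD41 (0.0183 and -0.0540). TER-119 lay near 0 in letters C and D, and CD41 had a tag in only 46.3% of the cells. The difference between the letter sets was not tested for any of these proteins.

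For 4 values, 1 letter stood apart from the other 3, which chance does in about 1 in 20 groups, and 82 groups were searched. Early Ery B minus Ery C was 0.296 for CD54 in letter D, beside 0.226 to 0.232 in the others, and 0.155 for CD16/32 in letter C, beside 0.110 to 0.115. CD79b, Old minus Young, was -0.0354 in letter C and 0.0455 to 0.05 elsewhere. CD54 in letter D differed by 0.0865 between numbers 2 and 4 and numbers 1 and 3, beside 0.172 to 0.184.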

How the results depend on the processing

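On log2 counts per 1000 the called proteins were 19 against Early Ery A, 17 against Ery A, 24 against Ery B, 20 against Ery C, 25 against Ery 4, 9 for Old minus Young and 29 for numbers 2 and 4 minus numbers 1 and 3, where B220 turned to 0.0238; that scale is wider than the score while the threshold stayed at 0.1. Against Early Ery A the count was 2 after thinning, 1 without block, 7 at a threshold of 0.05 and 4 in numbers 1 and 3 alone. Against Ery A it was 12 centred on lineage antibodies, 16 without block and 12 at 0.05, against Ery 4 22 when centred, and for age 5 at 0.05. Leaving out 1 letter gave 0 to 2 proteins against Early Ery A (CD105 at 0.105 and CD27 passed without D), 6 to 8 against Ery A, 12 against Ery C, 11 to 12 against Ery 4, 12 against Ery B, 2 to 3 for age, 10 to 11 for the numbers, and a share difference of -10.7 to -7.54 points. For Ery B, leaving out A or B was not run because those letters held too few cells. Leaving out C or D left 1 letter, so the condition of 1 direction in every letter could not fail there. The share difference was -18.5 points in numbers 2 and 4 alone and -2.65 in numbers 1 and 3 alone. Among values of single proteins under all settings, 1071 were classed as moved by less than the spread over letters and 475 by more. Only 1 was classed as reversed, B220 between the numbers, but values short of the threshold also changed sign. Centred on the lineage antibodies, CD44 was higher in Early Ery B than in Ery A, Ery C and Ery 4, by 0.0159, 0.0259 and 0.0365. In the main comparisons CD44 was lower in Early Ery B than in each of them. TER-119 is among the antibodies used for centring. Its lower level in Early Ery B raises every centred difference from these classes, so the changed sign does not by itself bear on CD44. Settings by number were chosen after seeing the data. No paired analysis was possible because the replicate numbers in the library titles are tied to no cells (the pairs of cell groups used here come from the group names alone). Depth limits low tags: CD11b, with a tag in 20.1% of cells, and NK1.1, in 25%, allow no ranking.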

Other observations

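Cells without Egfp RNA, called Egfp-negative by the authors, were 60 of 572 Old Early Ery B cells (10.5%, exact 95% interval 8.10 to 13.3) and 51 of 1888 Young cells (2.70%, 2.02 to 3.54). By letter the shares were 10.4% in Old and 0.923% in Young cells of A, 6.09% and 1.46% in B, 17.4% and 7.85% in C, and 12.4% and 5.11% in D. The median RNA depth was 56293 UMIs in Old and 58765 in Young cells. In HSCs, which lie before the Flk2 stage, 76.7% of 172 Old cells were negative at a median of 13760 UMIs, and 29.4% of 17 Young cells at 11496 UMIs. Early Ery A had 6.82% negative cells in Old and 1.69% in Young, and Ery C 3.55% and 1.18%. The Old shares of Ery A (10.3%, against 3.70% in Young), Ery B (10.2% and 6.92%) and Ery 4 (12.4% and 1.84%) were near that of Early Ery B. The paper cites earlier work in which old FlkSwitch mice had no Tom+ erythroid or myeloid cells. Lack of Egfp RNA is a different measure from Tom, and why these cells were negative was not tested.

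Among single Early Ery B cells of 1 group, CD105 scores went with CD44 scores (median Spearman rho of 16 groups 0.786, and 0.496 after thinning to 300 counts) and against CD38 (-0.488, and -0.361 after thinning) and MHC class II (-0.397, and -0.299). CD38 went with CD86 (0.575, and 0.351). CD105 and CD44 also went with the RNA depth of the cell (0.622 and 0.648), and CD27 ran against it (-0.363, negative in 16 of 16 groups). These scores share a denominator within the cell, so the values are descriptions.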
